A study of Mus musculus with 17 samples.

Results

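The endothelial genes Pecam1, Cdh5, Kdr, Tie1, Tek, Cldn5, Egfl7, Adgrf5, Afap1l1 and Ly6c1 were followed through the bulk RNA-seq profiles of 3 sorted populations from mouse lung tumors. The 10 genes were taken by symbol out of 17555 gene names in the 3 tables together, of which 9 had values in tumor cells, 8 in tissue-resident macrophages (TRMs) and 10 in monocyte-derived macrophages (MDMs). They were chosen by their RPKM values in these same libraries, so their levels and genotype differences are given as a description, without a test. Endothelial cells line the blood vessels. The angiogenic signal reaches them through the VEGF receptor encoded by Kdr and through the angiopoietin receptor system of Tek and Tie1, and they are sealed to each other by junction proteins such as those of Cdh5, Cldn5 and Pecam1. None of the 3 populations was sorted to hold endothelial cells.

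All mice carried the alleles of the KL model, floxed Lkb1 among them, and all received Ad-Cre through the nose and tamoxifen by intraperitoneal injection. KLG4 mice carried in addition the Gpx4 m/m allele, in which the targeted exons are flanked by rox sites and a DreERT2 recombinase is expressed from the same locus once Cre has removed a stop cassette. Adenoviral Cre is not restricted to 1 cell type. Cells were taken 10 weeks after Ad-Cre, with 2 libraries for each genotype in tumor cells, TRMs and MDMs, 12 libraries in 6 groups. Tumor cells were sorted as CD45-, CD31- and EpCAM+, and CD31 is the protein of Pecam1, so that 1 of the 10 genes was itself a criterion of the gate. The gates of TRMs and MDMs are not given in the sources used here.

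Values are RPKM, reads per kilobase of gene and megaread counted. The 3 tables were normalized separately, so levels set side by side across populations carry that limit. The depth recovered from the values was 9.14 to 36.6 M (megareads) of counted reads a library. Gpx4 was lower in the KLG4 than in the KL libraries of tumor cells (56.4 and 61.9 against 95.0 and 76.8 RPKM) and of TRMs (53.8 and 57.0 against 89.8 and 88.2) and higher in those of MDMs (93.6 and 97.7 against 44.9 and 71.3). Reads of mitochondrial genes, nuclear copies included, made up 14.8% and 14.7% of KLG4 and 7.39% and 8.27% of KL tumor cell libraries. In TRMs their share was 2.95% and 5.78% in KLG4 and 31.5% and 22.3% in KL. In TRMs Xist and the Y-linked Eif2s3y split by genotype, so sex and genotype cannot be told apart there. Every tumor cell library held both, Xist at 4.17 to 6.18 RPKM and Eif2s3y at 7.27 to 9.26 RPKM. The 2 KLG4 tumor cell libraries lay closer to each other (chi-square of 3.28 a gene) than any other pair of replicates (29.1 to 133), although the study describes them as separate mice. In bulk samples, fewer cells of a type and less RNA per cell cannot be told apart.

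On the GRCm38 genome, Pecam1 lies at chr11:106654217-106750628, Cdh5 at chr8:104101625-104144511, Kdr at chr5:75932827-75978458, Tie1 at chr4:118471191-118490061, Tek at chr4:94739289-94874976, Cldn5 at chr16:18776847-18778262, Egfl7 at chr2:26580014-26593120, Adgrf5 at chr17:43360451-43459557 and Ly6c1 at chr15:75044018-75048830. Reads were counted over all exons and without strand, so reads where exons overlap on opposite strands cannot be told apart. Afap1l1 overlaps the antisense gene 1500015A07Rik, which had 17.6 RPKM in its highest tumor cell library, and Egfl7 overlaps Gm20532 and Agpat2 and holds Mir126a, at chr2:26591357-26591429, whose product was not measured. Cdh5 overlaps the antisense gene Gm29682 and Adgrf5 the small nuclear RNA Gm25135, for which no values were used here. The counts of these 4 genes are uncertain to that extent.

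The 250 bases before the starts of these endothelial genes were read for letters bound by ETS factors, the family of the endothelial regulators Erg and Fli1. RefSeq windows (GRCm38.p6) were matched for 7 of the 10 genes, 11 windows in all. The letters ACAGGAA, searched on both strands, were found in 4 windows of 3 genes, Egfl7, Tie1 and Adgrf5, and in 7.20% of all 32851 windows of that length. The letters CCGGAAG were found in 0 of the 11 windows and in 6.91% of all windows. The 2 windows with a match that hold at most 1 base of an annotated exon are printed here, on the plus strand, with the match in capitals. The first lies at chr2:26583615-26583864 and the second at chr17:43360181-43360430.
Egfl7: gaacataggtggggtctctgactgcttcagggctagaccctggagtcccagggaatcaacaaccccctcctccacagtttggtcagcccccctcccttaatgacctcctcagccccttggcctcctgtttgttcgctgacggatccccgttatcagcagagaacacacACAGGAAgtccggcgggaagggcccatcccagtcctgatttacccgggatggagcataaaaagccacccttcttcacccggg
Adgrf5: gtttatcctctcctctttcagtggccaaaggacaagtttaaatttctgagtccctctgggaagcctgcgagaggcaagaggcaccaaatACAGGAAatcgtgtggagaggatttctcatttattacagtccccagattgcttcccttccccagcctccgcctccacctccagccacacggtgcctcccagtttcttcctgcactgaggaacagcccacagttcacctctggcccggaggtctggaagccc
The match began 82 bases before the start in Egfl7 and 161 bases before it in Adgrf5. These are matches of letters, not measured sites, and binding was not measured in these libraries.

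Kdr, the main signaling receptor for VEGF-A, was measured at 1.93 and 1.95 RPKM in the KLG4 and at 0.662 and 0.677 RPKM in the KL tumor cell libraries. The KLG4 TRMs held 0.199 and 0.170 RPKM, and their KL counterparts 0.332 and 0.582 RPKM. MDMs gave 0.221 and 0.332 RPKM with the KLG4 genotype, compared with 0.811 and 2.63 RPKM with KL. The genotypes did not overlap in any population, and the direction turned over: Kdr was 2.65-fold higher in KLG4 tumor cells, 1.91-fold lower in KLG4 TRMs and 4.23-fold lower in KLG4 MDMs. On the log2 scale of RPKM + 0.1 that all fold changes here use, these were differences of 1.41 ± 0.02, -0.94 ± 0.34 and -2.08 ± 0.82 (SE, 2 against 2 libraries). KLG4 tumor cells and KL MDMs shared the top of the order of levels with ranges that overlapped.

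Tek, the receptor for the angiopoietins, followed the same course. Its level was 3.90 and 4.03 RPKM in KLG4 tumor cells, compared with 2.30 and 1.24 RPKM in KL ones. In TRMs it was 0.166 and 0.325 RPKM in KLG4 against 0.552 and 1.63 RPKM in KL, and in MDMs 0.456 and 0.750 RPKM against 1.50 and 5.05 RPKM. The genotypes again stood apart in each population, with log2 differences of 1.18 ± 0.42 in tumor cells, -1.66 ± 0.78 in TRMs and -2.06 ± 0.90 in MDMs (SE). Within KL MDMs the higher library lay 3.37-fold above the other, so the size of the MDM difference depended on which KL library was read.

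Tie1, the orphan receptor that partners with the product of Tek, was the lowest of the receptors and was not analysed in tumor cells. It was at 0.0911 and 0.0346 RPKM in KLG4 TRMs and at 0.203 and 0.356 RPKM in KL TRMs. The KLG4 MDMs had 0.172 and 0.242 RPKM, and the KL MDMs 0.614 and 1.74 RPKM. Both populations had Tie1 lower in each KLG4 library, by a log2 difference of -1.21 ± 0.39 and -1.91 ± 0.70 (SE).

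Of the junction genes, Cdh5 (VE-cadherin, the adhesion molecule of endothelial adherens junctions) did not share the tumor cell pattern of the receptors. It measured 2.13 and 1.61 RPKM in KLG4 tumor cells, compared with 2.86 and 2.12 RPKM in KL ones, where the ranges overlapped. For TRMs, the KLG4 values were 1.24 and 1.42 RPKM and the KL values 1.43 and 2.76 RPKM, with the closest values of the genotypes almost equal. The KLG4 MDMs held 1.11 and 1.94 RPKM, and their KL counterparts 3.82 and 9.26 RPKM. The KL MDMs held the highest Cdh5 level of the 6 groups, 6.54 ± 3.85 RPKM (SD, n = 2), and their range did not overlap the next group, KL tumor cells. The 5 groups below KL MDMs, between 1.33 and 2.49 RPKM on average, each overlapped their neighbor in the order.

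Cldn5, the claudin of endothelial tight junctions, measured 1.92 and 2.04 RPKM in KLG4 tumor cells, compared with 1.62 and 0.608 RPKM in KL ones. The groups stood apart, but the closest values differed by little and the SE of the log2 difference, 0.92 ± 0.64, was large. The lower KL value rested on 26 reads. MDMs gave 0.651 and 0.788 RPKM with the KLG4 genotype, compared with 1.45 and 4.77 RPKM with KL, a log2 difference of -1.75 ± 0.84 (SE). It was not analysed in TRMs.

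Pecam1 encodes CD31, an adhesion molecule that platelets and leukocytes also carry, and in MDMs it departed from the other 9 genes. Its highest levels of the 6 groups were in the 2 MDM groups, at 11.7 and 15.8 RPKM for KLG4 against 7.79 and 11.8 RPKM for KL, where the genotypes overlapped. For TRMs, the KLG4 values were 0.888 and 1.75 RPKM and the KL values 2.28 and 2.28 RPKM. In tumor cells, sorted as CD31-, Pecam1 was at 3.72 and 4.18 RPKM for KLG4 against 2.23 and 1.17 RPKM for KL. Every library of the CD31- gate thus held Pecam1 reads, from 220 to 509, and the KLG4 libraries had more on the RPKM scale. The log2 differences were 1.23 ± 0.45 in tumor cells, -0.82 ± 0.45 in TRMs and 0.50 ± 0.37 in MDMs (SE).

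**Figure D1:**
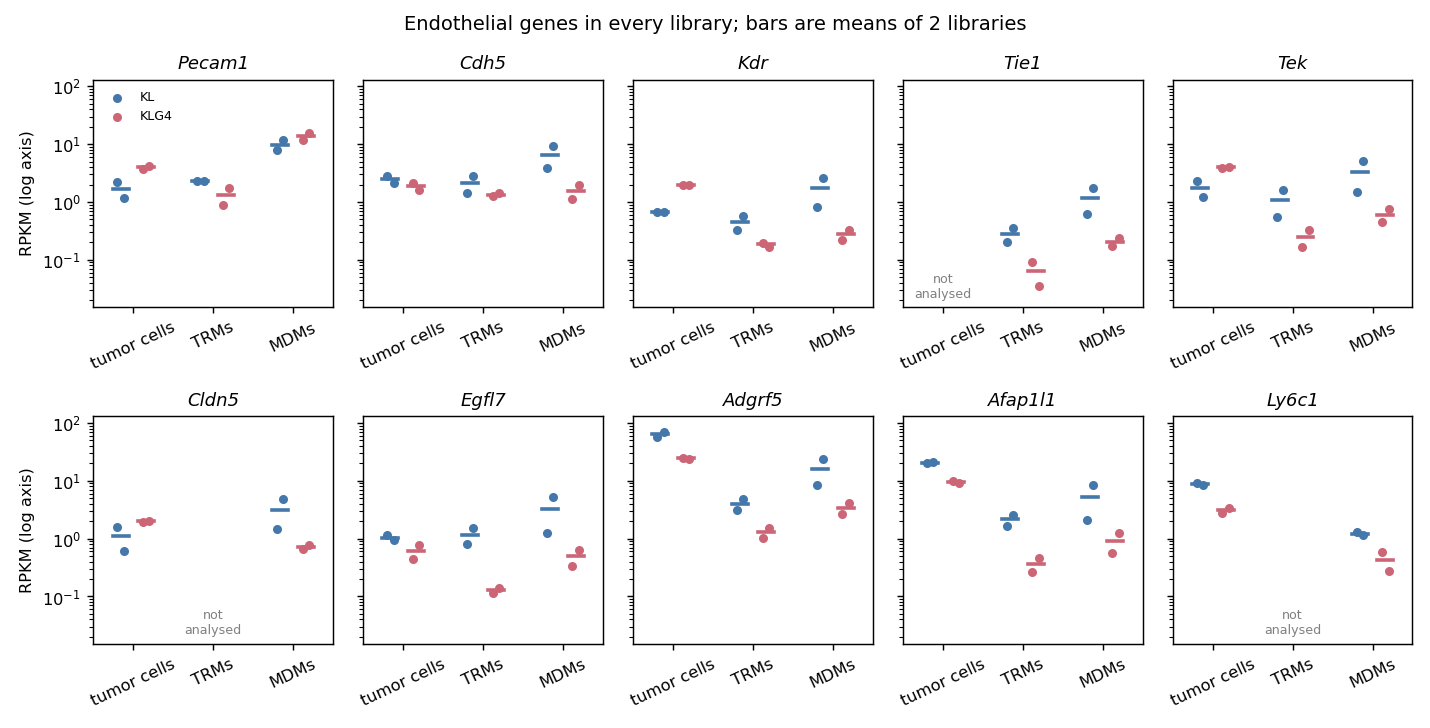
RPKM of each of the 10 genes on a log axis in tumor cells, TRMs and MDMs. Each point is 1 library (blue KL, red KLG4) and each bar the mean of 2 libraries. Kdr and Tek are higher in KLG4 tumor cells and lower in KLG4 TRMs and MDMs, and Adgrf5 reaches 57.4 and 69.5 RPKM in KL tumor cells.

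Egfl7, a secreted protein of the endothelial matrix, measured 0.443 and 0.772 RPKM in KLG4 tumor cells, compared with 1.14 and 0.942 RPKM in KL ones. The KLG4 TRMs held 0.115 and 0.143 RPKM, and their KL counterparts 0.810 and 1.53 RPKM. MDMs gave 0.343 and 0.644 RPKM with the KLG4 genotype, compared with 1.26 and 5.33 RPKM with KL. Each population had Egfl7 lower in both KLG4 libraries, with log2 differences of -0.73 ± 0.36, -2.41 ± 0.43 and -2.25 ± 1.06 (SE). The TRM difference was the largest of the 8 genes there, and its KLG4 values rested on 11 and 6 reads.

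Adgrf5, an adhesion G protein-coupled receptor known in lung endothelium and in alveolar type 2 (AT2) cells, was by far the most abundant of the 10 genes in tumor cells. It measured 25.0 and 23.8 RPKM in KLG4 tumor cells, compared with 57.4 and 69.5 RPKM in KL ones, a level above 94.5% of genes of that table in KL. For TRMs, the KLG4 values were 1.01 and 1.55 RPKM and the KL values 3.08 and 4.85 RPKM. The KLG4 MDMs held 2.68 and 4.16 RPKM, and their KL counterparts 8.55 and 23.5 RPKM. Adgrf5 was lower in both KLG4 libraries of each population, by 2.58-fold, 2.93-fold and 4.15-fold. The 3 highest groups, KL tumor cells, KLG4 tumor cells and KL MDMs, had ranges that did not overlap each other.

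Afap1l1 (chr18:61730261-61786702), an adaptor protein associated with actin filaments, ran beside Adgrf5 at a lower level. It measured 9.96 and 9.30 RPKM in KLG4 tumor cells, compared with 20.0 and 21.4 RPKM in KL ones. TRMs gave 0.264 and 0.462 RPKM with the KLG4 genotype, compared with 1.69 and 2.62 RPKM with KL. The MDM values were 0.563 and 1.26 RPKM for KLG4 against 2.08 and 8.43 RPKM for KL. The log2 differences were -1.09 ± 0.07 in tumor cells, -2.28 ± 0.44 in TRMs and -2.18 ± 1.11 in MDMs (SE). Its antisense neighbor overlaps it on the other strand, and the effect of that overlap on these values was not tested.

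Ly6c1, a surface protein of the Ly6 family carried by lung endothelium and some leukocytes, measured 2.80 and 3.33 RPKM in KLG4 tumor cells, compared with 9.23 and 8.42 RPKM in KL ones, 2.82-fold lower in KLG4. For MDMs, the KLG4 values were 0.595 and 0.275 RPKM and the KL values 1.29 and 1.15 RPKM, on 12 to 40 reads a library. Its near-identical copy Ly6c2, a marker of inflammatory monocytes, was at 0.980 and 0.280 RPKM for KLG4 against 0.904 and 0.211 RPKM for KL MDMs. Reads that fit both copies could have been split or dropped, so the Ly6c1 values are uncertain. Neither gene was analysed in TRMs.

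In tumor cells, all of the 9 genes but Cdh5, whose groups overlapped, fell into 2 sets that went in opposite directions. Kdr, Tek, Pecam1 and Cldn5, 4 of 9, were higher in both KLG4 libraries, and Adgrf5, Afap1l1, Ly6c1 and Egfl7, another 4 of 9, were lower in both. Of all genes of the table, 34.3% stood higher and 38.6% lower in this way, so each count was read as no more than a description. The sets differed in level: the lower set included the 3 most abundant of the 9 in KL, and Egfl7, whereas Kdr, Tek, Pecam1 and Cldn5 were all at or under 2.30 RPKM in every KL library.

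Within a library, the ratio of Adgrf5 to Cdh5, both per kilobase, was 20.1 and 32.7 in KL and 11.7 and 14.8 in KLG4 tumor cells. The same ratio was 2.16 and 1.76 in KL and 0.813 and 1.10 in KLG4 TRMs, and it stayed between 2.14 and 2.54 in all 4 MDM libraries. Set against Tek instead, Adgrf5 was 25.0 and 56.0 times as high in KL tumor cells but 6.40 and 5.92 times in KLG4 tumor cells, close to the 2.98 to 6.07 of TRMs and the 4.65 to 5.89 of MDMs. The ratio of Afap1l1 to Cdh5 was 4.68 to 10.1 in tumor cells, against 0.506 to 0.910 in MDMs. Tek stood to Cdh5 as 0.387 to 0.545 in the MDM libraries, as 0.803 and 0.585 in KL tumor cells and as 1.83 and 2.49 in KLG4 tumor cells. A ratio within a library does not depend on the scaling between libraries or tables.

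**Figure D2:**
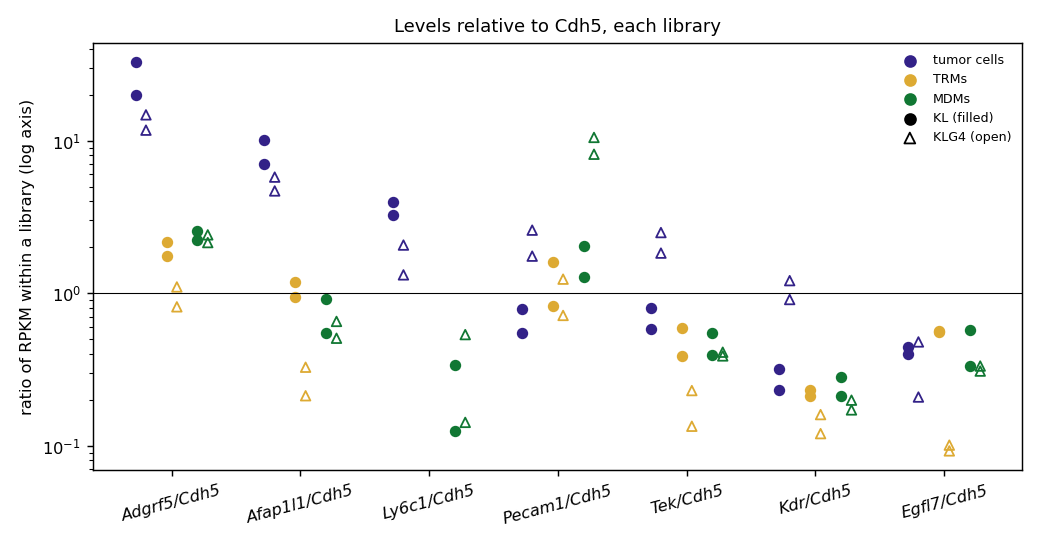
Ratio of the RPKM of 7 of the genes to that of Cdh5 within each library, on a log axis. Filled circles are KL and open triangles KLG4 libraries, with tumor cells in blue, TRMs in yellow and MDMs in green. Adgrf5 lies between 11.7 and 32.7 times Cdh5 in tumor cells and between 2.14 and 2.54 times in MDMs.

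Markers of other cell types moved with both sets in tumor cells. All 10 listed leukocyte genes rose in KLG4 tumor cells by limma (adjusted p under the threshold of 0.05), where 20.6% of all tested genes rose and 19.6% fell. Their summed level was 324 to 327 RPKM in KLG4 and 39.2 to 51.0 RPKM in KL, and Ptprc, which encodes the CD45 that the gate excludes, was at 26.7 and 27.4 against 0.834 and 2.06 RPKM. Of the macrophage genes 10 of 10 rose, and of the Ly6C monocyte genes 7 of the 8 that passed the filter, Ace among them. Of the mural (vessel wall) genes 6 of 6 that passed the filter rose, with sums of 67.7 and 72.6 against 10.8 and 6.71 RPKM. Of the fibroblast genes 9 of 10 rose and the other fell, with sums of 433 to 438 against 28.3 to 36.7 RPKM. In the other direction, 10 of 10 AT2 genes and 9 of 10 AT1 genes fell, with 1 AT1 gene, Pdpn, higher. The AT2 gene Sftpc, the surfactant protein, was at 331 and 335 RPKM for KLG4 against 1324 and 1506 RPKM for KL, and the AT1 gene Ager at 54.9 and 56.7 against 426 and 448 RPKM. Epcam, the positive marker of the gate, was at 215 and 211 against 638 and 420 RPKM, and 9 of 10 epithelial genes fell. The part of any of these cell types in the differences of the 9 genes was not tested.

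In TRMs, all 8 genes with values were lower in both KLG4 libraries than in both KL libraries, where 10.7% of all genes of the table were. They had been picked with these values in view, and nothing is read from the count. The 8 values lay between 0.0346 and 4.85 RPKM, and 4 of the 8 genes, Pecam1, Cdh5, Adgrf5 and Afap1l1, passed the filter on low values. The median of all tested genes was itself at a log2 difference of 0.38 in this comparison, and once mitochondrial reads were left out of the totals it was 0.0017. Relative to the median of all genes, the differences ran from -0.93 for Cdh5 to -2.80 for Egfl7. The AT2 genes summed to 38.1 and 72.0 RPKM in KLG4 against 172 and 185 RPKM in KL. Of the 10, 5 were lower in both KLG4 libraries and 2, Abca3 and Napsa, higher, where 49% of all genes were higher. By limma, 2 of the 9 AT2 genes that passed the filter fell, as did 48 of all 10990 tested genes. Leukocyte genes were at 1237 and 1228 against 863 and 980 RPKM in sum, with 0 of 10 called, whereas 4 of 10 macrophage genes rose, where 1.36% of all tested genes did. Those 4, Itgax, Marco, Csf1r and Mrc1, had adjusted p of 0.0352 to 0.0499 in limma. Over all tested genes 150 rose, against 8 after rescaling to reads outside mitochondrial genes and 23 with quantile scaling. The epithelial sum was 66.5 and 106 against 130 and 148 RPKM. Sums of the mural genes were 3.10 and 3.57 against 6.20 and 6.88 RPKM. The part of these cells and of the share of mitochondrial reads was not tested.

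In MDMs, 9 of the 10 genes were lower in both KLG4 libraries, where 21.6% of all genes of the table were, and Pecam1 was the exception. All but Ly6c1 of these, 8 genes, had the 4 libraries in the same order, KLG4 1 lowest, then KLG4 2, then KL 1, then KL 2, an order that 10.6% of all genes shared. The values of these 8 genes in KL 2 were 2.43 to 4.22 times those in KL 1. Xist stood at 0.839 RPKM in KL 2 and at 19.4 to 21.8 RPKM in the other 3 libraries, so that KL 2 differed from them in this sex-linked RNA too. The AT2 sum followed that order, with 42.4 and 76.1 RPKM for KLG4 against 161 and 383 RPKM for KL. The mural sum did too, at 6.16 and 6.68 RPKM against 9.23 and 23.0 RPKM. So did the epithelial sum, with 19.0 and 60.8 RPKM for KLG4 against 77.3 and 267 RPKM for KL, where 8 of the 9 epithelial genes kept the order one by one. The share of mitochondrial reads was 0.923% and 1.33% in KLG4 and 2.76% and 7.31% in KL. Depth was 26.1 and 26.0 M for the KLG4 libraries, compared with 18.6 and 10.4 M for KL, the same order read from the top. KL 2 also held the highest sums of the macrophage genes (3037 RPKM, against 1345 to 1487 RPKM in the other 3 libraries), the platelet genes (34.7 against 5.35 to 6.47 RPKM) and the fibroblast genes (12.9 against 2.14 to 3.22 RPKM). Most of the macrophage sum in KL 2 was Lyz2 (2596 RPKM), and most of the platelet sum was Pf4 (32.6 RPKM). The platelet genes Itga2b, Gp1ba and Gp1bb were instead lowest in KL 2, at 0.760, 1.06 and 0.256 RPKM. The leukocyte sum did not follow the order, at 1235 and 1199 RPKM for KLG4 against 1225 and 1073 RPKM for KL. The part of these measures in the differences of the 10 genes was not tested.

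**Figure D3:**
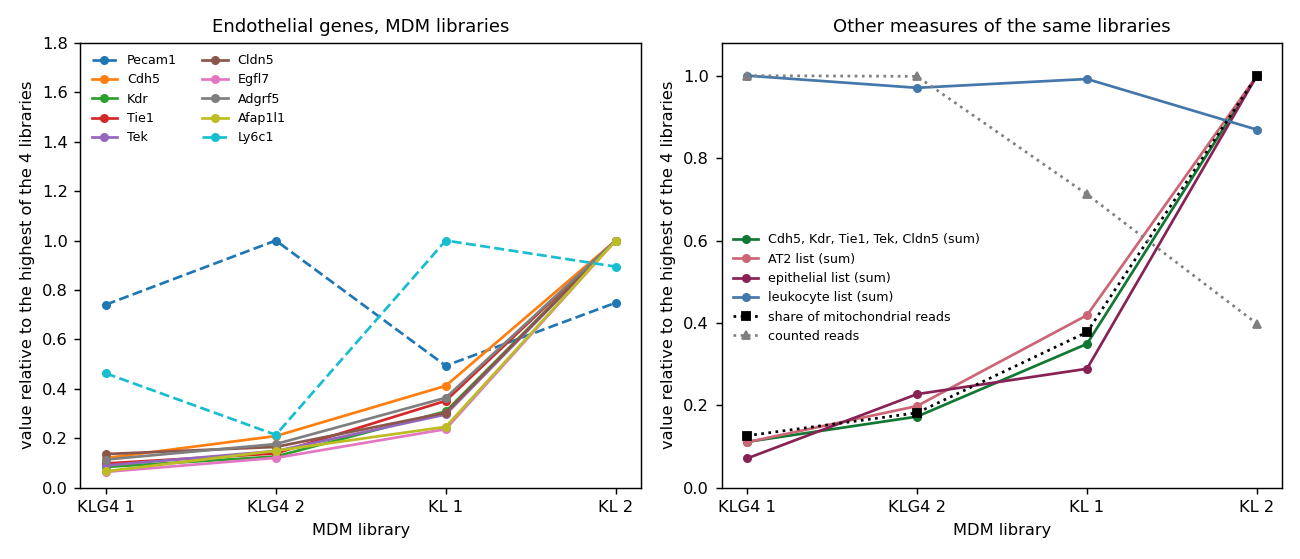
The 4 MDM libraries on the x axis, with each value divided by the highest of the 4 on the y axis. The left panel shows the 10 genes (Pecam1 and Ly6c1 dashed) and the right panel summed marker lists, the share of mitochondrial reads and the counted reads. The 8 genes drawn with full lines, the AT2 and epithelial sums and the mitochondrial share climb from KLG4 1 to KL 2, while the counted reads go from 26.1 to 10.4 M.

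**Figure D4:**
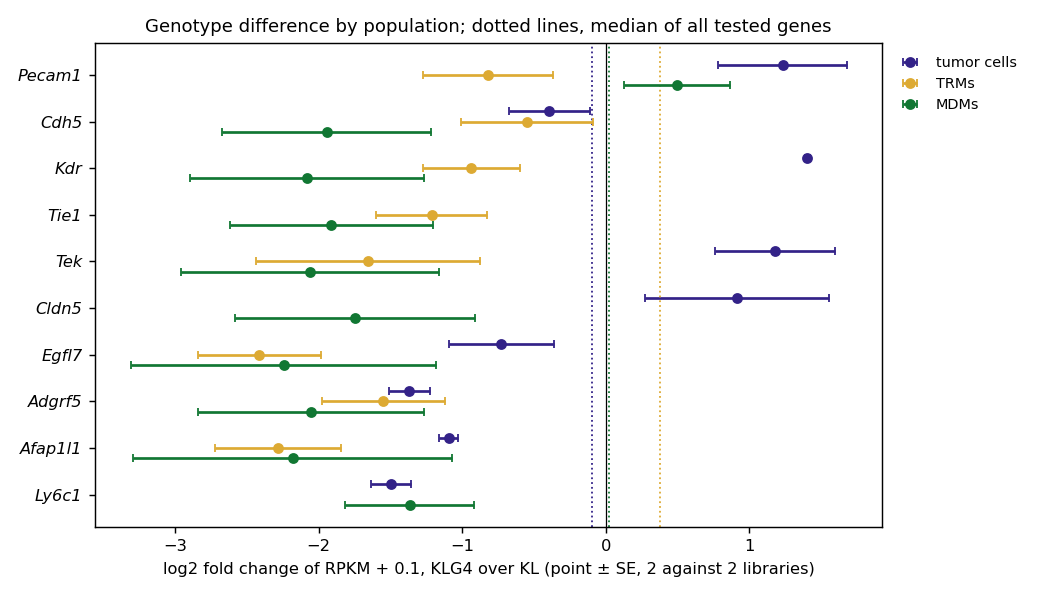
Log2 difference of RPKM + 0.1 between KLG4 and KL for each of the 10 genes, as a point with its SE over 2 against 2 libraries, by population. Dotted lines mark the median of all tested genes (0.38 in TRMs). Kdr, Tek, Cldn5 and Pecam1 lie right of 0 in tumor cells, and all MDM points but Pecam1 lie left of it.

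Beside the 10 genes, 40 further endothelial genes were listed and read from the limma fit across all genes of each table. The list was chosen with earlier results of these data known, so its counts and medians are a description. In tumor cells 20 of them passed the filter on low values, and 11 rose and 3 fell in KLG4 (limma, adjusted p under 0.05), where 20.6% of all tested genes rose and 19.6% fell. The median log2 difference of the 20 was 1.35, against -0.09 over all tested genes. Cd34, Eng, S1pr1, Erg, Plvap, Tmem100 and Lyve1, all higher in KLG4, reached 1 RPKM in both KLG4 but not in both KL libraries. Sox17, lower in KLG4, reached it in the KL libraries only. The counts and the median thus depend in part on the filter. Fits without KLG4 replicate 1 or 2 assume that the lone KLG4 library varies like the KL pair, and no call of a listed gene is read from them. Cd34, a sialomucin of endothelial and progenitor cells, had the largest increase, from KL values of 0.562 and 0.553 RPKM to 10.3 and 9.91 RPKM (log2 difference 3.96 ± 0.18, adjusted p = 0.000178 in limma). S1pr1, the sphingosine-1-phosphate receptor of endothelium and lymphocytes, rose from 1.02 and 0.575 to 6.47 and 7.73 RPKM (3.04 ± 0.29, adjusted p = 0.00121 in limma). Thbd, thrombomodulin, rose by a log2 difference of 2.92 and Acvrl1, a receptor of the BMP family, by 2.41. Eng (endoglin, the coreceptor of Acvrl1) rose by 2.21, Car4, a carbonic anhydrase of alveolar capillaries, by 2.13 and Tmem100, a transmembrane protein of lung vessels, by 1.71. Sox17, a transcription factor of arterial endothelium and of lung epithelium, fell by 2.42, from 1.38 and 1.75 RPKM to 0.238 and 0.184 RPKM. Several of these genes, such as Cd34, S1pr1, Thbd and Ace, are also used by fibroblasts, leukocytes or monocytes, and the values of those markers are given above.

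Of the same list, 12 genes passed the filter in TRMs and 0 were called by limma, where 1.8% of all tested genes were called (3111 genes of 10990 had an unadjusted p under 0.05). Their median log2 difference was 0.13, under the 0.38 of all genes. Of the 33 listed genes with values, 17 were lower in both KLG4 libraries, where 10.7% of all genes of the table were, and 5 were higher, where 49% of all genes were. The most abundant was Car4, known also from alveolar macrophages, at 597 and 541 RPKM for KLG4 against 437 and 484 RPKM for KL, and it made up most of the summed level of the list. Ramp2, Flt1 and Acvrl1 had overlapping groups, and the log2 differences of these and of Car4, 0.09 to 0.31, turned to -0.084 to -0.30 once mitochondrial reads were left out of the totals. Ace, Thbd and Vwf stood higher in both KLG4 libraries, by log2 differences of 0.84, 0.95 and 0.79, and Plvap, the protein of fenestral diaphragms, stood lower, at 1.17 and 1.37 against 1.71 and 7.87 RPKM.

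In MDMs, 22 listed genes passed the filter and 0 were called, as were 0% of all tested genes by limma and by limma-voom (706 and 673 genes had an unadjusted p under 0.05). The fit without KL replicate 1 takes its spread from the KLG4 pair alone and assumes that the single KL library varies like it. No call of a listed gene is read from it. The median log2 difference of the 22 was -1.46, against 0.02 over all genes. Eng, S1pr1, Ptprb, Esam, Ecscr, Mmrn2 and Tmem100 were under 1 RPKM in both KLG4 libraries and passed the filter through the KL pair. This median thus depends in part on the filter. Of the 34 listed genes with values, 27 were lower in both KLG4 libraries, against 21.6% of all genes of the table, and 0 were higher. The order of libraries of the 8 genes above was shared by 20 of the 34, against 10.6% of all genes. Plvap was at 2.32 and 2.94 RPKM for KLG4 against 7.92 and 18.4 RPKM for KL. Ace was at 2.49 and 2.44 against 3.44 and 12.6 RPKM, Vwf (von Willebrand factor) at 3.24 and 2.75 against 4.84 and 5.29 RPKM and Flt1, the decoy VEGF receptor, at 2.34 and 2.60 against 2.65 and 6.11 RPKM. Car4, Ramp2, Rasip1 and Acvrl1 had overlapping groups.

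**Figure D5:**
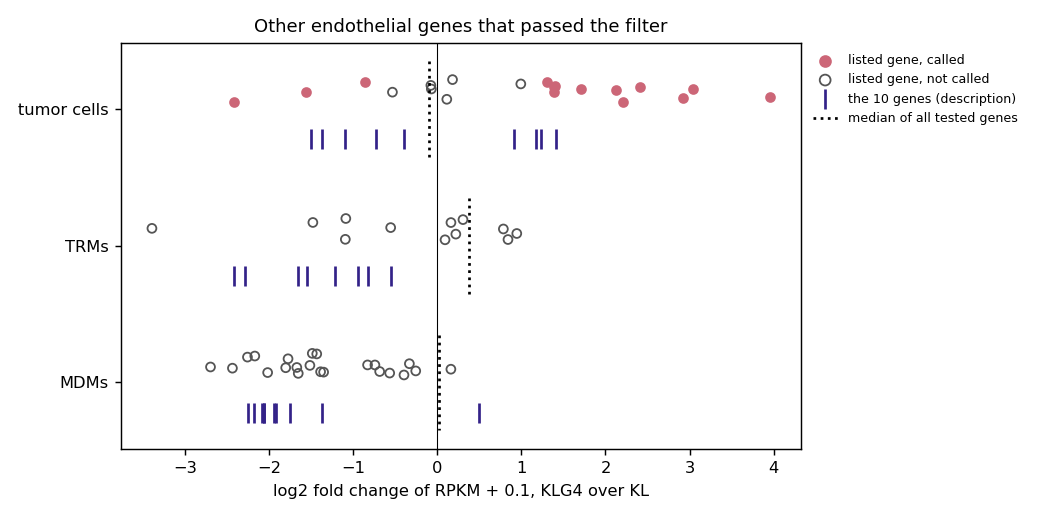
Log2 difference of RPKM + 0.1 between KLG4 and KL for the other endothelial genes that passed the filter, 20 in tumor cells, 12 in TRMs and 22 in MDMs. Red points were called by limma at an adjusted p under 0.05, open points were not, blue ticks are the 10 genes and dotted lines the median of all tested genes. Called genes appear in tumor cells only, 11 to the right and 3 to the left of 0.

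The partners of Kdr and Tek were read from a list of 12 VEGF and angiopoietin ligands and coreceptors. In tumor cells 9 passed the filter, and 6 rose and 2 fell by limma, beside 20.6% and 19.6% of all tested genes. Vegfa, the ligand of Kdr, fell in KLG4, from 242 and 210 RPKM to 117 and 120 RPKM. Angpt1, the activating ligand of Tek, rose from 0.244 and 0.326 to 4.77 and 4.52 RPKM, and Angpt2, its context-dependent antagonist, from 0.266 and 0.197 to 1.01 and 1.12 RPKM. Pgf rose from 1.29 and 1.13 to 10.8 and 13.4 RPKM and Vegfd from 0.590 and 0.810 to 4.59 and 3.78 RPKM. The coreceptors Nrp1 and Nrp2 rose by log2 differences of 0.78 and 1.16, the decoy receptor Flt1 fell by 0.86, and the ligand Vegfb passed no threshold (0.13). With either KLG4 library left out, Vegfa, Nrp1, Nrp2 and Flt1 were no longer called, and Pgf still was. Without KLG4 replicate 1 and 2 in turn, the log2 differences were -0.91 and -0.95 for Vegfa and 0.85 and 0.72 for Nrp1. They were 1.19 and 1.12 for Nrp2 and 3.36 and 3.06 for Pgf. In these fits Vegfd, Angpt1 and Angpt2 did not pass the filter and were not tested. The call of Nrp1 was also lost with a pseudocount of 0.01 (adjusted p = 0.0510 in limma), and that of Angpt2 with quantile scaling (log2 difference 0.34, adjusted p = 0.444 in limma). Kdr was thus higher in KLG4 tumor cells beside a lower Vegfa, and Tek was higher beside a higher Angpt1.

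In TRMs, 6 of the list passed the filter and 2 rose, as 1.36% of all tested genes did. Vegfa rose from KL values of 14.8 and 19.6 RPKM to 63.7 and 52.5 RPKM, while Kdr was at most 0.582 RPKM there, and Nrp2 rose from 4.45 and 7.03 to 23.7 and 20.5 RPKM. Without mitochondrial reads in the totals both calls were lost (log2 differences of 1.37 and 1.58, adjusted p = 0.0595 and 0.0761 in limma, 0.000373 to 0.0761 over all settings for both genes), and that of Nrp2 was also lost with quantile scaling (adjusted p = 0.0619 in limma). In MDMs 6 passed and 0 were called. Without KL replicate 1, the log2 differences were -2.63 for Pgf and -1.27 for Flt1, and without KL replicate 2 that of Pgf was -0.046. Vegfa was at 375 and 292 RPKM for KLG4 against 169 and 254 RPKM for KL, Pgf at 2.86 and 3.57 against 3.30 and 20.3 RPKM, and Ptprb, the phosphatase that acts on the product of Tek, at 0.599 and 0.639 against 1.07 and 3.12 RPKM.

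Among the 5 genes most restricted to endothelium, Cdh5, Kdr and Tek had values in all 3 tables, and their mean log2 level served to find genes with a like pattern over the 12 libraries. Of 11482 other genes, the most alike were Aqp1, the water channel of capillaries (r = 0.95), Nes (r = 0.94), Clec14a (r = 0.94) and Erg (r = 0.91). Sparcl1, Tspan7, Prx, Adamts1, Tspan18 and Pde9a followed, down to r = 0.88. Of these 10 genes, 3 (Clec14a, Erg and Tspan7) were on the list of 40 endothelial genes, and 6 were also among the 10 highest by rank correlation. Aqp1 averaged 2.52 and 4.69 RPKM in KL and KLG4 tumor cells, 2.09 and 0.761 RPKM in TRMs and 8.66 and 1.02 RPKM in MDMs, the same turn of direction as Kdr and Tek. Of the members with values in all 3 tables, Pecam1 was the least alike (r = 0.34) and Adgrf5 (r = 0.77) and Afap1l1 (r = 0.78) were between. The 12 points share tables, groups and depth, and the correlations are a description.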

How the data were processed

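RNA was measured in all 17 samples of the series, of which 12 were used and 5 (CD8+ T cells and monocytes) were not analysed here. As the labels and methods state, the authors trimmed paired reads with Trim Galore (0.6.4), aligned them with HISAT2 (2.0.5) to GRCm38 and counted them with featureCounts (2.0.0) without strand. They deposited RPKM values in 1 table a population, beside their own fold changes and p-values, which were not used. No column of another sample was left unused (0). Gene length came from the tumor cell table and was matched by name.

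Depth was recovered from the step of RPKM times length, with 100% of values within 0.05 of a whole read. Between 17% and 33% of counts under 30 were odd, so both mates were mostly counted, and counting noise is larger than the reads imply. Each table was fitted alone with limma (3.58.1, R 4.3.3), two-sided with a trend, on log2(RPKM + 0.1), with a floor of 1 RPKM in 2 or more of 4 libraries, with Benjamini-Hochberg adjustment over the table and calls at 0.05. Fold changes on this scale understate low genes. For the 10 genes, differences and SEs came from the 2 and 2 libraries alone, since filtered genes were included. Groups and replicate numbers came from sample titles. One allele that all mice share is not reported here. The study describes the tumor cell replicates as separate mice. For TRMs and MDMs nothing in the sources used here says so, and p-values there measure only the spread between these samples, which may be technical.

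The members and lists were chosen with earlier results of these data known. Genes named were the 10 members, Gpx4, Ly6c2, the first gene of other cell type lists, all ligands and coreceptors past the filter, and of the other endothelial genes up to 8 with the largest change among those called (or the highest mean where under 4 were called). Up to 10 genes were named for the highest Pearson r over 12 libraries with the mean of the restricted members, of which Tie1 and Cldn5 had to be left out for want of values in every table. Alternatives were pseudocounts of 1 and 0.01, no filter, quantile scaling, rescaling to reads outside mitochondrial genes, limma-voom on recovered reads, a replicate block, rank correlation and leaving out each library. Counts of genes without overlap, left out by library, were added after seeing the data and can only stay or grow by construction, so none is given.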

Additional observations from a re-analysis of the deposited data

Results flagged for a closer look

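Of the 10 genes, 4 had KLG4 libraries above both KL libraries in one population and below both in another, as did 28.6% of the 13890 genes with values in more than 1 table. The difference between populations was not tested, since the tables were normalized separately. Kdr had a log2 difference between KLG4 and KL of 1.41 in tumor cells, -0.94 in TRMs and -2.08 in MDMs. Tek had 1.18, -1.66 and -2.06. Cldn5 had 0.92 in tumor cells and -1.75 in MDMs. Pecam1 had 1.23 in tumor cells and -0.82 in TRMs.

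Of the other endothelial genes named, 10 did the same. Cd34 had a log2 difference of 3.96 in tumor cells, -0.74 in TRMs and -1.23 in MDMs, and S1pr1 of 3.04, -1.90 and -1.49. Tmem100 had 1.71, -3.39 and -2.26, and Plvap 1.40, -1.48 and -2.17. Eng had 2.21 in tumor cells and -1.67 in MDMs, and Rasip1 1.39 in tumor cells and -1.14 in TRMs. Ace, which monocytes also express, had 1.30 in tumor cells, 0.84 in TRMs and -1.39 in MDMs. Vwf had 0.79 in TRMs and -0.74 in MDMs. Erg had 1.39, -1.99 and -1.80 in tumor cells, TRMs and MDMs, and Clec14a 0.59, -1.05 and -2.04.

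The same held for 9 more genes named. In the order tumor cells, TRMs and MDMs, the log2 differences were 0.89, -1.67 and -2.68 for Aqp1, 0.78, -1.23 and -1.84 for Nes and 3.35, -2.47 and -2.50 for Sparcl1. They were 2.35, -2.07 and -2.65 for Adamts1 and 2.26, -1.35 and -1.57 for Tspan18, and Pde9a had 1.21 in tumor cells and -2.16 in MDMs. Genes alike in pattern to Cdh5, Kdr and Tek were chosen for such a course. Vegfa ran the other way, with -0.93, 1.76 and 0.68, Nrp1 had 0.78, 0.70 and -1.44, and Gpx4 had -0.53, -0.68 and 0.76. Every group held 2 libraries, too few for a search for single libraries that stand apart.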

How the results depend on the processing

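The log2 differences of the 10 genes kept their direction with other pseudocounts, quantile scaling, rescaling and limma-voom, for the 20 that passed the filter, although some, Kdr in tumor cells among them, moved by more than the spread between replicates. Fits without the filter or with the replicate block give the same difference by construction, and leaving out a library cannot turn one whose groups do not overlap. Leaving out 1 library moved the genes called from 5543 to between 1843 and 7243 in tumor cells, from 198 to between 212 and 2631 in TRMs and from 0 to between 0 and 2592 in MDMs. The other endothelial genes called moved from 14 to between 9 and 14, from 0 to between 0 and 3 and from 0 to between 0 and 9. In TRMs, the count of 198 became 490 with a pseudocount of 1, 122 with 0.01, 120 with no filter, 60 with quantile scaling, 31 after rescaling to reads outside mitochondrial genes and 1937 with limma-voom. The other endothelial genes called there became 1 with a pseudocount of 1 and 3 with limma-voom. The cause was not tested. The share of calls that were higher in KLG4 was 51.3% in tumor cells, 38.5% with quantile scaling and 61.1% after rescaling. In TRMs it was 75.8%, 38.3% with quantile scaling, 25.8% after rescaling, 91.7% with limma-voom and 94.5% without KL replicate 2.

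Replicate numbers were shared between the genotypes but paired nothing by the labels, and deviations of same-numbered libraries correlated at 0.02 in tumor cells, -0.06 in TRMs and 0.05 in MDMs. With the replicate number as a block, the genes called were 5388 in tumor cells, 470 in TRMs and 0 in MDMs, and the other endothelial genes called 14, 0 and 0.

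None of the named genes that limma called turned direction. Among genes not called, Vegfb in tumor cells turned to -0.044 with quantile scaling. In TRMs, Flt1, Ramp2 and Acvrl1 turned to -0.17, -0.28 and -0.26 with quantile scaling, and these and Car4 to -0.17, -0.30, -0.22 and -0.084 after rescaling. With a library left out, Vegfb ranged from -0.83 to 0.078, Pgf from -0.89 to 0.38 and Ramp2 from -0.12 to 0.30 in TRMs, and Vegfb from -0.27 to 0.11, Nrp2 from -0.27 to 0.70, Car4 from -0.49 to 0.81 and Ramp2 from -0.72 to 0.057 in MDMs. By rank correlation 6 of the 10 genes most alike were kept.

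With 2 libraries a group and member values that rest on as few as 6 reads, small differences were not detectable at this depth, and intervals cover counting error only in part, since mates were counted separately.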
